A study of Homo sapiens with 3 samples.

Results

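The genes described here encode the proteins of the cytosolic ribosome, the machine that translates nuclear messenger RNA. A gene was taken when its symbol was RPS or RPL followed by a number and at most 1 further letter, or when it was RPLP0, RPLP1, RPLP2 or RPSA. RPS6 kinases, antisense genes, pseudogenes, RPS4X and RPS4Y1 were left out. The rule found 80 of 22499 genes with a symbol, 31 of the small subunit and 49 of the large subunit, and used no measured value.

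They were measured by single-cell RNA sequencing of CAMA-1 spheroids. CAMA-1 is an established luminal, estrogen receptor positive breast cancer cell line, and ribociclib is an inhibitor of the cell cycle kinases CDK4 and CDK6. The sensitive cells were the parental line labelled with the fluorescent protein Venus, and the resistant cells were a line derived from it by long culture in ribociclib and labelled with mCherry. Spheroids of 2000 plated cells, 100% sensitive, 100% resistant or 50% of each, all received 1 µM ribociclib with DMSO and were harvested at day 11, so no untreated spheroid enters any comparison, and each lineage is 1 cell line. Cells were frozen viably and thawed before capture, and each condition is 1 library. The coculture library holds both lineages, which the study separated by their transgenes, so there were 4 populations. Sensitive monoculture has 3329 annotated cells and resistant monoculture 7557, while the coculture gave 2059 sensitive and 6292 resistant cells. Between 70896822 and 270891547 UMIs were summed per population.

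A ribosome carries 1 copy of nearly every member, so cells make these proteins in matched amounts. Their messenger RNAs are among the most abundant of a growing cell and begin with a run of pyrimidines, the 5′ terminal oligopyrimidine (TOP) motif. Through that motif mTORC1, a kinase complex that senses nutrients and growth factors, controls how strongly they are translated. The level of a TOP messenger RNA is therefore not a measure of ribosome production.

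Values are unique molecular identifiers (UMIs), each standing for 1 captured RNA molecule counted at its 3′ end, summed over a population's cells. CPM are UMIs of a gene per 1000000 UMIs of that population. Because molecules and not fragments are counted, CPM here are not scaled to length. With 1 library per condition, cells are not replicates, no test was possible and no p-value is given. Intervals are exact 95% intervals that cover counting error only, not the spread between spheroids or libraries. A gene was compared when its mean over the 4 populations was at least 50 CPM, which 2295 genes and 77 of the 80 members passed, and it is called higher or lower below at a log2 ratio of CPM + 1 of 0.25 or more.

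Among the members not compared, RPL10L, a copy known from testis, had no UMI in any population, which allows at most 0.0423 CPM (3 counts) in the shallowest. RPL3L, a copy known from striated muscle, had 0.0831, 0.522, 0.982 and 0.295 CPM in monocultured sensitive, cocultured sensitive, cocultured resistant and monocultured resistant cells.

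The starts of the transcripts show what the members share. In the 77 compared members, 65 annotated starts (84.4%) had a C followed by at least 4 further C or T, opening within 5 bases of the start, against 21.8% of 19894 protein-coding genes. The search used the Ensembl canonical start in GENCODE 44 on GRCh37 and the transcribed strand only. Windows of 30 bases, 15 before the start and 15 from it, are printed for the 5 members with the highest and the 5 with the lowest ratio of cocultured to monocultured sensitive cells, and for RPS6 and RPS27L, which stand apart in later comparisons. Capitals mark the pyrimidine run. The 5 highest were:

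RPS27, chr1:153963223-153963252, plus strand: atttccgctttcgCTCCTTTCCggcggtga
RPS28, chr19:8386365-8386394, plus strand: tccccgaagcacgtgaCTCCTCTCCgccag
RPL39, chrX:118925579-118925608, minus strand: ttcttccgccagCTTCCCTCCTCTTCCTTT
RPL37A, chr2:217363552-217363581, plus strand: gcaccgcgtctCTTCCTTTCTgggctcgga
RPS29, chr14:50053084-50053113, minus strand: tgcgtgggccagCTTCTTCCTTTTacctcg

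The 5 lowest, from RPL10A upward, were:

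RPL10A, chr6:35436163-35436192, plus strand: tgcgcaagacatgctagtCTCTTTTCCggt
RPL39L, chr3:186857270-186857299, minus strand: gcatccggggaaatcgcggtcttagcatcc
RPS10, chr6:34393832-34393861, minus strand: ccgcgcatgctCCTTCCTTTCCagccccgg
RPL29, chr3:52029897-52029926, minus strand: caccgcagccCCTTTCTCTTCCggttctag
RPL3, chr22:39715614-39715643, minus strand: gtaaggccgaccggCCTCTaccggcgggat

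The others were:

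RPS6, chr9:19380220-19380249, minus strand: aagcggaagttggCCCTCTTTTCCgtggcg
RPS27L, chr15:63449662-63449691, minus strand: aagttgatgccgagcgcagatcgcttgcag

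The run was present at both ends of the ratio: all 5 highest members had one, of 9 to 22 bases counted from a C within 5 bases of the start, and 4 of the 5 lowest did, of 5 to 12 bases. The run of RPL39 goes past the end of its window, which shows 18 of its bases. Letters before the counted run are in lower case even where they are C or T, which was so for 3 bases in RPL37A, 2 each in RPS10 and RPL29, and 1 in RPL10A. RPL39L and RPS27L, copies of RPL39 and RPS27, had none in the window. A match says only that these letters are there, and the position of the start is the annotation's.

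The family made up 14.16% (14.15 to 14.16%) of all UMIs in monocultured sensitive cells, 18.72% (18.71 to 18.73%) in cocultured sensitive cells, 19.71% (19.70 to 19.71%) in cocultured resistant cells and 20.08% (20.07 to 20.08%) in monocultured resistant cells, with exact Clopper-Pearson intervals. Sensitive monoculture stood apart as the lowest, while the other 3 populations lay between 18.7% and 20.1%. Cells spread widely within each population: the median cell was at 13.4%, 18.7%, 19.9% and 20.3%, and the SD over cells was 3.33 to 3.42 percentage points. The upper quartile of sensitive monoculture (15.7%) lay below the lower quartile of each of the other populations (16.4% to 18.1%). The small subunit genes took 43.5% of the family's UMIs in monocultured sensitive cells, 44.3% in cocultured sensitive cells, 44.7% in cocultured resistant cells and 45.3% in monocultured resistant cells, so both subunits contributed in nearly fixed proportion.

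**Figure D1:**
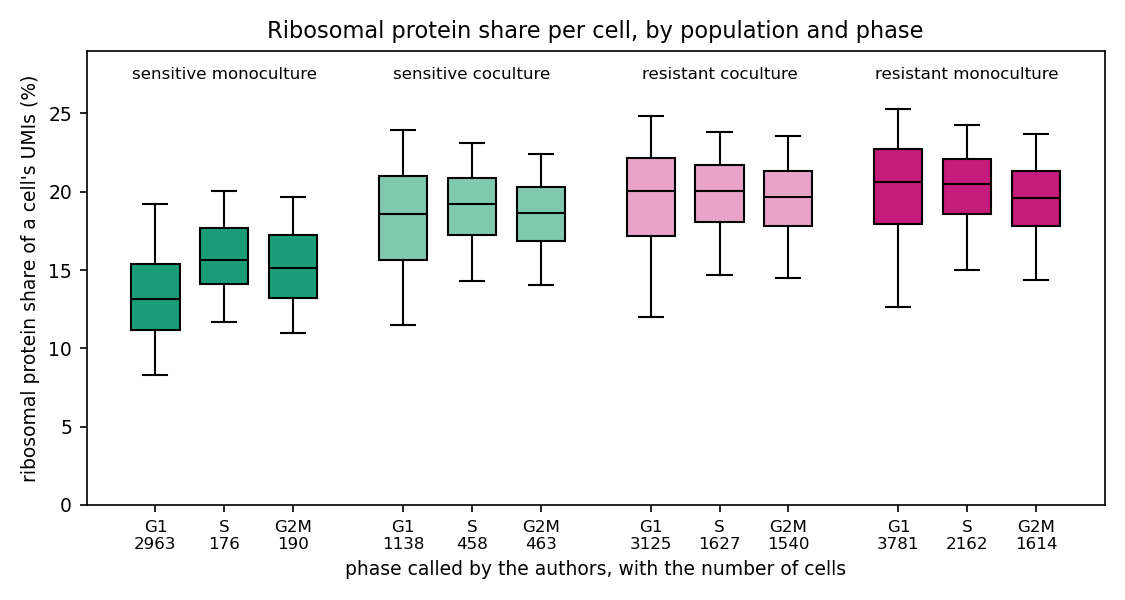
Share of each cell's UMIs on the 80 ribosomal protein genes (y axis, percent) by population and by the phase the authors called (x axis, with the number of cells). The line is the median, the box the quartiles and the whiskers the 5th and 95th percentiles over cells. Cells of sensitive monoculture lie lowest in each phase, with medians of 13.2% in G1, 15.6% in S and 15.1% in G2M.

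In sensitive cells the family was higher in coculture with resistant cells than in monoculture. Its share was 1.32-fold higher (log2 ratio 0.403, counting interval 0.402 to 0.404). The coculture library stood apart from both others in counting more of the short members, so the ratio is also given for members of at least 600 coding bases, 0.24, and of at most 300, 0.84. Of 77 members compared, 46 were called higher and 0 lower, against 22.4% of all 2295 genes called higher and 20.3% called lower. The median member had a log2 ratio of 0.32, with an interquartile range of 0.18 to 0.53, and the median of all genes was 0.01. At a log2 ratio of 0.5, 22 members were called, all higher, against 15.6% of all genes called in either direction. The difference moved with the mitochondrial share: among the 76 monocultured and 99 cocultured sensitive cells with under 10% mitochondrial UMIs, the log2 ratio of the share was 0.18 and 25 members were called (23 higher and 2 lower).

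The highest ratios were those of small proteins. RPS27, a zinc-binding protein of the small subunit, had 2709.7 CPM in monocultured sensitive cells, 6925 in cocultured sensitive cells, 7750.4 in cocultured resistant cells and 5807 in monocultured resistant cells. It was thus lowest in sensitive monoculture and highest in resistant coculture, and its log2 ratio of cocultured to monocultured sensitive cells was 1.35 (counting interval 1.35 to 1.36). RPS28, also of the small subunit, had 2359.5, 5046, 4983 and 3709.9 CPM in the same order, a ratio of 1.10 (counting interval 1.09 to 1.10). RPL39, which lines the exit tunnel of the large subunit, had 1924, 3967, 4332 and 2689 CPM, a ratio of 1.04 (counting interval 1.04 to 1.05). In each of these 3 the cocultured populations lay above both monocultures. RPL37A of the large subunit had 1619.7, 3245, 3549 and 2791 CPM and a ratio of 1.00 (counting interval 0.99 to 1.01). RPS29 of the small subunit had 395, 784, 806 and 625 CPM and a ratio of 0.99 (counting interval 0.97 to 1.01). In all 5 sensitive monoculture was lowest and resistant monoculture second lowest.

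RPL37 (0.95), RPL36 (0.93), RPL38 (0.84) and RPL34 (0.83) followed. Further members past a log2 ratio of 0.5 were RPS26, RPS21, RPL35, RPL31, RPLP2, RPL28, RPS19, RPL27A, RPL21, RPS15 and RPL35A, from 0.74 for RPS26 to 0.50 for RPL35A. RPS19, the gene most often mutated in the inherited anaemia Diamond-Blackfan, had 2776, 4175, 4368 and 4569.7 CPM. RPS26, which sits where messenger RNA leaves the small subunit, had 1619.9, 2699, 2281 and 1620.0 CPM, equal in both monocultures and higher in both cocultured populations.

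At the other end, 3 members had ratios below 0 and none passed the threshold. RPL10A, a protein of the flexible L1 stalk, had 1406 CPM in monocultured sensitive cells, 1291 in cocultured sensitive cells, 1369 in cocultured resistant cells and 1708 in monocultured resistant cells, a log2 ratio of -0.12 (counting interval -0.14 to -0.11) in sensitive cells. Its level was lowest in sensitive coculture, unlike that of most members. RPL39L had 89.3, 84.4, 89.4 and 123 CPM, a ratio of -0.08 (counting interval -0.13 to -0.03). RPS10, of the small subunit, had 1948, 1867, 2139 and 2333 CPM, a ratio of -0.06 (counting interval -0.07 to -0.05). RPL29 (0.02) and RPL3 (0.03), a core protein near the peptidyl transferase centre, were next. The 77 members thus spanned log2 ratios of -0.12 to 1.35 in the same cells.

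**Figure D2:**
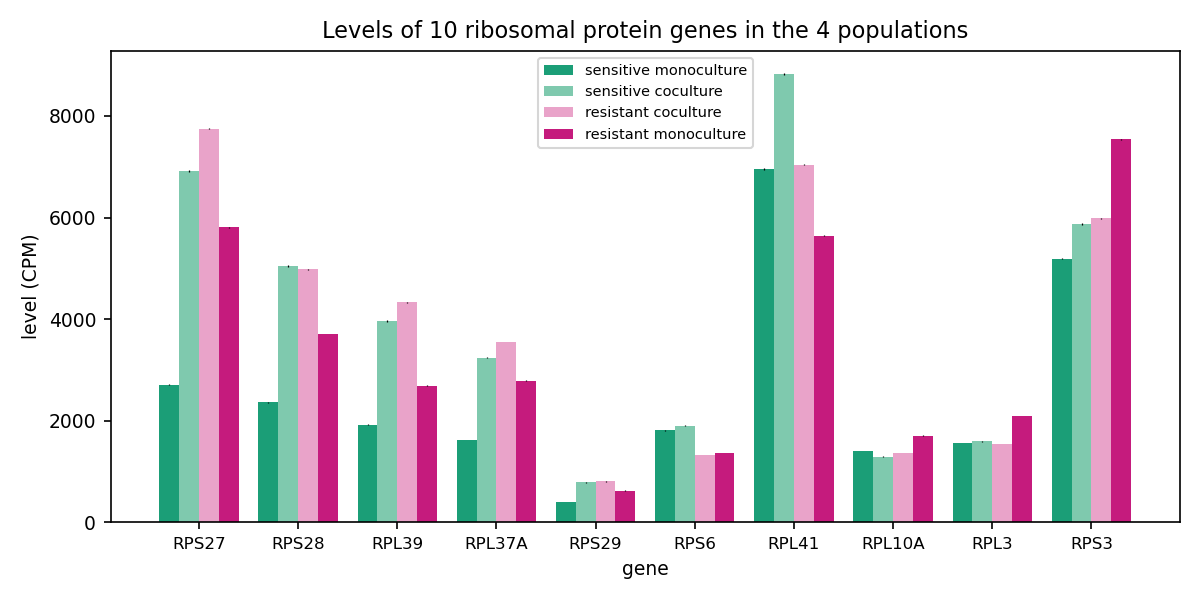
Levels of 10 ribosomal protein genes (y axis, CPM from 0) in the 4 populations, with exact 95% Poisson intervals for counting error, most of them narrower than the line. RPS27, RPS28, RPL39 and RPL37A are lowest in sensitive monoculture and second lowest in resistant monoculture, RPS6 is lower in both resistant populations, and RPL10A, RPL3 and RPS3 are highest in resistant monoculture.

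Resistant monoculture compared with sensitive monoculture asks how the lineages differ when each grows alone in drug. Its share was 1.42-fold higher (log2 0.504, 0.503 to 0.505), and 66 of 77 members were called higher and 2 lower, against 28.3% and 22.4% of all genes. The median member was at 0.51 (interquartile range 0.38 to 0.65) and the median gene at 0.04. At a log2 ratio of 0.5, 40 members were called, all higher, against 22.4% of all genes in either direction. Small subunit members had a median of 0.56 and large subunit members of 0.47. With only the cells under 10% mitochondrial UMIs (76 sensitive, 349 resistant), the share's log2 ratio was 0.17 and 29 members were called, 25 higher and 4 lower.

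Among the 5 highest were RPS27 at 1.10 (counting interval 1.09 to 1.11), RPL37 at 0.88 (counting interval 0.87 to 0.89) and RPL37A at 0.78 (counting interval 0.78 to 0.79). RPSA, the laminin receptor protein of the small subunit, had 1053 CPM in monocultured sensitive cells, 1473 in cocultured sensitive cells, 1426 in cocultured resistant cells and 1752 in monocultured resistant cells and a ratio of 0.73. RPS3, which lines the messenger RNA entry channel and is one of the 5 most counted members, had 5190.1, 5875, 5982 and 7543 CPM and 0.54. RPS18, also among the 5 most counted, had 5781, 5962, 6966 and 7779 CPM (0.43), RPS2 had 5011, 5831, 6040.4 and 7416 CPM (0.57) and RPL8 4764, 5569, 5970.5 and 6981 CPM (0.55). All of these were lowest in sensitive monoculture.

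The 2 called lower were RPS6 and RPL41. RPS6, the subunit that S6 kinase phosphorylates when mTORC1 is active, had 1813 CPM in monocultured sensitive cells, 1899 in cocultured sensitive cells, 1324 in cocultured resistant cells and 1367 in monocultured resistant cells. Both sensitive populations lay above both resistant ones, and the ratio in monoculture was -0.41 (counting interval -0.42 to -0.40). RPL41, a peptide of 25 residues and the shortest member, had 6958, 8820.0, 7043 and 5641 CPM in the same order, a ratio of -0.30 (counting interval -0.31 to -0.30). RPL41 was highest in sensitive coculture and lowest in resistant monoculture. RPS27L (-0.09), RPS26 (0.00) and RPS7 (0.05) completed the 5 lowest and did not pass the threshold. The higher level of the family in resistant cells thus did not extend to every member.

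In resistant cells the family's share was nearly the same in coculture and in monoculture (log2 ratio -0.027, -0.027 to -0.026), but its members went both ways. Of 77, 13 were called higher and 14 lower in coculture, against 13.9% and 11.5% of all genes, with a median of -0.09 beside -0.03 for all genes. The highest was RPL39 at 0.69 (counting interval 0.68 to 0.69), the only member past 0.5, where 2.31% of all genes were called in either direction. RPS26 (0.49), RPL38 (0.46), RPS28 (0.43) and RPS27 (0.42) followed. The lowest were RPL39L at -0.46 (counting interval -0.49 to -0.44), RPL3 at -0.44 (counting interval -0.45 to -0.44), RPL29 at -0.35 and RPS3 at -0.33. With TMM scaling factors 9 members were called higher and 22 lower, with median-of-ratios factors 11 and 22.

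Within the coculture library, where both lineages shared spheroids, capture and sequencing, the family differed little between lineages and the direction of its share turned with the cells taken. The share of resistant cells was 1.05-fold that of sensitive cells (log2 0.074, 0.073 to 0.075). The interquartile range of the members was 0.01 to 0.17, 3 were called higher and 3 lower, and 11.1% and 13.0% of all genes were. At a log2 ratio of 0.5, RPS6 alone was called, against 5.05% of all genes. In cells with under 10% mitochondrial UMIs (99 sensitive, 294 resistant) the log2 ratio of the share was -0.014, with 4 members called higher and 7 lower. Without mitochondrially encoded genes in the totals it was 0.045, with 3 higher and 6 lower. Over all cells RPS6 was at -0.52 (counting interval -0.53 to -0.51), RPL41 at -0.32 (counting interval -0.33 to -0.32) and RPS7, whose product is known to bind MDM2, at -0.26 (counting interval -0.27 to -0.25). The called higher were RPS21 at 0.36 (counting interval 0.35 to 0.37), RPL31 at 0.32 (counting interval 0.30 to 0.34) and RPS24 at 0.30 (counting interval 0.29 to 0.31). RPS21 had 1016 CPM in monocultured sensitive cells, 1657 in cocultured sensitive cells, 2132 in cocultured resistant cells and 1703 in monocultured resistant cells, higher in resistant than in sensitive cells in both settings. Cells of 1 droplet library share free RNA, whose part in the small size of these differences was not tested.

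The members that were called lower between the lineages in both settings, RPS6 and RPL41, lay among genes whose median was also below 0. For each member the median log2 ratio of other genes with at least 10 CPM and a start within 5 Mb was taken, a measure added after the values were seen. Around RPS6 on chromosome 9 (chr9:19375713-19380234), 7 such genes had medians of -0.83 between monocultures and -0.59 within coculture. Around RPL41 on chromosome 12 (chr12:56510417-56511751), 73 genes had -0.29 and -0.25. RPS26 lies in the same stretch and was at 0.00 and -0.24. Around RPL11 on chromosome 1 (chr1:24018296-24023325), 61 genes had -0.44 and -0.36, while RPL11 was at 0.14 and -0.23. Around RPS21 on chromosome 20 (chr20:60962159-60963576), 38 genes had 0.37 and 0.34. Around RPS24 on chromosome 10, 25 genes had -0.29 and 0.08, while RPS24 was at 0.62 and 0.30.

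Over the 77 members, the ratio within coculture and the median of the neighbours had a Pearson r of 0.81 and a Spearman rho of 0.47, and r was 0.75 without RPS6. In monoculture they were 0.55 and 0.38. For coculture over monoculture they were near 0, 0.06 and 0.05 in sensitive cells and 0.05 and 0.13 in resistant cells. Members on the same stretch share neighbours and all ratios share libraries, so these are descriptions. Copy number was not measured here.

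The coculture ratios followed the length of the coding sequence, a split that was also chosen after the values were seen. In sensitive cells the 11 members of at most 300 coding bases had a median log2 ratio of 0.95, and those of over 600 bases (21 members) of 0.21. In resistant cells the same groups had medians of 0.35 and -0.23. Spearman's rho between coding length and ratio over the 77 members was -0.53 in sensitive cells and -0.73 in resistant cells, but -0.11 between monocultures and -0.17 within coculture. The order by length was present in both comparisons that set the coculture library against a monoculture library, and weak where it was not set against one. RPL39L, with 153 coding bases, departed from that order, at -0.08 and -0.46. RPS27L, with 252 coding bases, was at 0.07 and 0.16, and RPL41, the shortest member, at 0.34 and 0.32. Both thus also lay below the medians of the short members, RPL41 only slightly in resistant cells.

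Other nuclear genes did not show the order to that extent. Their 143 genes of at most 300 coding bases had medians of 0.06 in sensitive and 0.09 in resistant cells, and rho was 0.03 and 0.12. These medians cover genes that went different ways, as examples picked after their values were seen show. ATP5ME (207 coding bases) was at 1.25 and 0.60 and ATP5MPL (174 coding bases) at 0.75 and 0.63. ABRACL (243 coding bases) was at -0.22 and 0.02 and ANAPC11 (252 coding bases) at 0.25 and 0.05. Higher counts of short genes in coculture were thus not confined to the family. Among the 13 mitochondrially encoded protein genes rho was -0.70 and -0.53 for coculture over monoculture, and -0.84 and -0.64 for the lineage comparisons. MT-ND3, a short gene of complex I, had 15728, 25310.5, 27457 and 17717 CPM in monocultured sensitive, cocultured sensitive, cocultured resistant and monocultured resistant cells. Its levels, too, were higher in both cocultured populations.

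**Figure D3:**
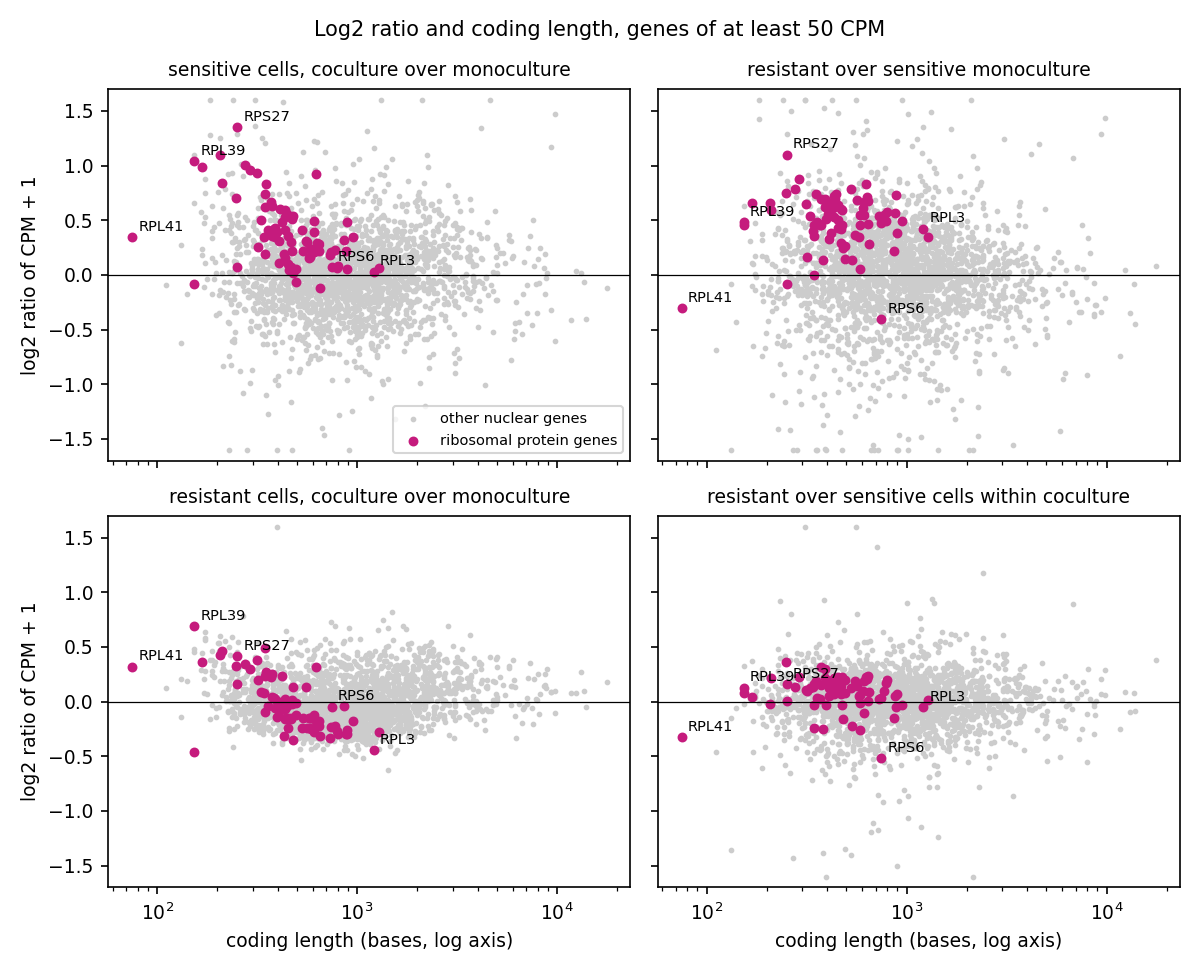
Log2 ratio of CPM + 1 (y axis) against coding length in bases (x axis, log scale) for the 77 compared members and other nuclear genes of at least 50 CPM, in 4 comparisons; other genes past 1.6 are drawn at that value. Members slope downward with length in both coculture over monoculture panels and not in the lineage panels, where RPS6 and RPL41 lie below the other members.

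The ratio of UMIs on members of at most 300 coding bases to UMIs on members of at least 600 set the libraries apart. It was 0.444 in sensitive monoculture and 0.431 in resistant monoculture, against 0.672 and 0.662 in the cocultured populations. Over all barcodes with at least 2000 UMIs it ran from 0.413 to 0.569 by mitochondrial share in sensitive monoculture, from 0.423 to 0.542 in resistant monoculture and from 0.639 to 0.749 in coculture. The range of the coculture library lay above those of both monocultures, which overlapped each other. In barcodes of fewer UMIs, not annotated as cells, it was 0.524, 0.480 and 0.682. Short members were thus relatively more counted in every class of barcode of the coculture library, and with 1 library per condition coculture and library cannot be told apart. For resistant coculture over monoculture the log2 ratio of the share was -0.22 for members of at least 600 bases and 0.40 for those of at most 300. Between the monocultures it was 0.52 and 0.47 for the same classes. The median members of those classes had the other order there, 0.54 and 0.65. RPL41, a short member of high count, had 6958 CPM in sensitive and 5641 CPM in resistant monoculture. The pooled values, and the close 0.444 and 0.431, include it.

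**Figure D4:**
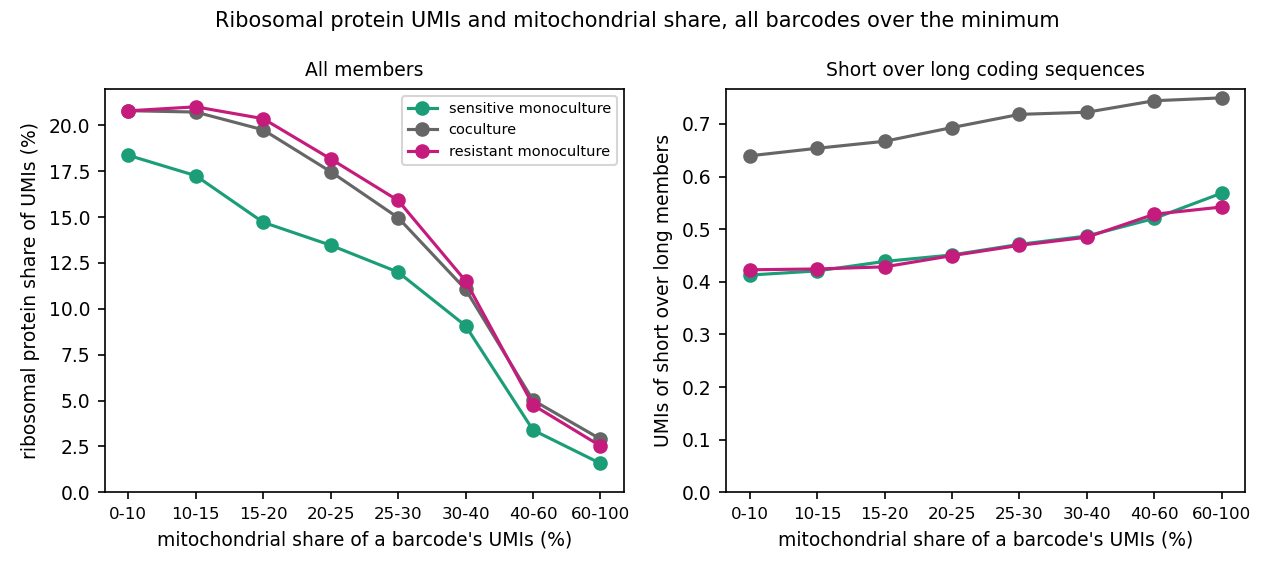
Share of UMIs on all members (left y axis, percent) and ratio of UMIs on short to long members (right y axis) by mitochondrial share of a barcode's UMIs (x axis, percent), for all barcodes of at least 2000 UMIs in the 3 libraries. From the class of 10 to 15% upward the family's share is lower in each next class in all 3 libraries, and the coculture library lies above both monocultures in the short to long ratio in every class.

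Cells with more mitochondrial UMIs had a lower ribosomal protein share. Pearson's r over cells was -0.48 in monocultured sensitive cells, -0.59 in cocultured sensitive cells, -0.52 in cocultured resistant cells and -0.45 in monocultured resistant cells, where both shares have the same denominator. Mitochondrial genes took 20.3% of UMIs in monocultured sensitive cells, 17.6% in cocultured sensitive cells, 15.9% in cocultured resistant cells and 16.1% in monocultured resistant cells. Without them in the totals the family's share was 17.8%, 22.7%, 23.4% and 23.9%, and sensitive monoculture stayed lowest.

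At matched mitochondrial share sensitive monoculture was still lowest. In annotated cells of under 10% mitochondrial UMIs the family took 18.40%, 20.91%, 20.71% and 20.68% in monocultured sensitive, cocultured sensitive, cocultured resistant and monocultured resistant cells. At 10 to 15% it took 17.17%, 20.29%, 20.75% and 20.99%, at 15 to 20% 14.65%, 19.22%, 19.81% and 20.30%, at 20 to 25% 13.46%, 17.05%, 17.30% and 18.05% and at 25 to 30% 12.05%, 15.01%, 14.71% and 15.74%. From the class of 10 to 15% upward the share was lower in each next class in all 4 populations, and the gap between sensitive monoculture and the others differed between classes. The part of cell condition at capture in these shares was not tested.

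Across the phases the authors called, the family's share hardly differed except in sensitive monoculture, where 2963 of 3329 cells were in G1. There the share was 13.9% in G1, 16.1% in S and 15.4% in G2M. The median member had a log2 ratio of 0.22 in S over G1 and 0.14 in G2M over G1, beside 0.12 and 0.14 for all genes. Of 77 members 27 were called higher in S and 20 in G2M, where 29.8% and 36.4% of all genes were, so the members' share of calls was close to the background in S and below it in G2M. In sensitive coculture the share was 18.6%, 19.1% and 18.6%, in resistant coculture 19.7%, 19.9% and 19.5%, and in resistant monoculture 20.2%, 20.3% and 19.4%. In the same order of populations, the median member's G2M over G1 log2 ratio was 0.0015, -0.02 and -0.06. The median of all genes was 0.09, 0.09 and 0.11, so members lay below other genes in G2M there. Median UMIs per cell in sensitive monoculture were 26713 in G1, 39100.5 in S and 36758 in G2M, and the mitochondrial share was 20.7%, 17.1% and 17.6%. Their part in the phase difference was not tested.

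RPL39L was the compared member with the highest S over G1 and G2M over G1 ratio in every population. It had 79.3 CPM in G1, 129.6 in S and 171 in G2M in sensitive monoculture, and 101 CPM in G1, 129.5 in S and 162 in G2M in resistant monoculture. Its G2M over G1 log2 ratios were 1.09, 0.69, 0.62 and 0.67 in monocultured sensitive, cocultured sensitive, cocultured resistant and monocultured resistant cells, and its S over G1 ratios 0.70, 0.45, 0.34 and 0.35. RPL39, the gene it copies, had G2M over G1 ratios of 0.07, -0.05, -0.01 and -0.02. The copy was thus higher in cycling phases where the original was not to that extent. RPS20, RPL12 and RPL23 were picked for this comparison after their values were seen. RPS20, of the small subunit head, was higher in S in all 4 populations (0.55, 0.32, 0.25 and 0.18). RPL10A (-0.12, -0.23, -0.23 and -0.22) and RPL12 of the stalk base (-0.08, -0.21, -0.15 and -0.19) had S over G1 ratios below 0 in all 4, and RPL23 had G2M over G1 ratios of -0.19, -0.16, -0.19 and -0.23. RPS6 was nearly level, at -0.06, -0.02, -0.06 and -0.10 in G2M over G1.

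**Figure D5:**
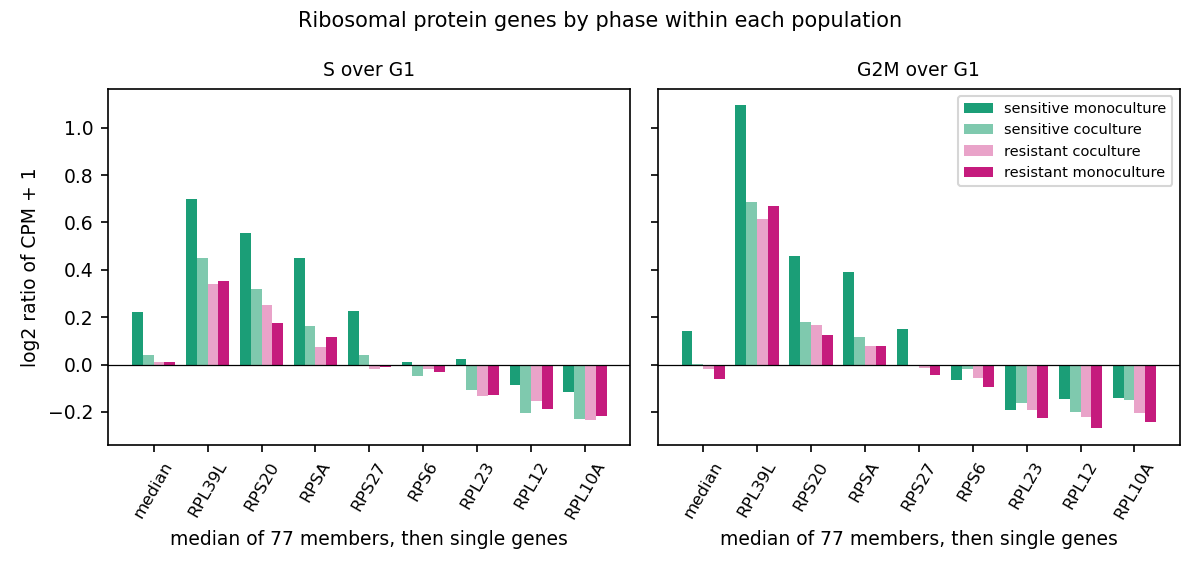
Log2 ratio of CPM + 1 of S (left) and G2M (right) over G1 (y axis) within each of the 4 populations, for the median of the 77 compared members and for 8 single genes (x axis). RPL39L is the highest bar in both panels in each population, up to 1.09 in sensitive monoculture, and RPL12 and RPL10A lie below 0 throughout.

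The family's share also differed between the authors' clusters. It was lowest in clusters 8 (11.6%), 12 (12.1%) and 4 (14.4%), which held mostly cells of sensitive monoculture, and highest in cluster 6 (22.2%), which held resistant cells of both libraries. Where a cluster held at least 50 sensitive cells of each setting, the share was 17.3% in monoculture and 19.3% in coculture in cluster 3, 15.3% and 18.5% in cluster 7, and 14.4% and 15.2% in cluster 4. RPS27 had 3360.2 and 7185 CPM in cluster 3, 2938 and 6796 in cluster 7, and 2715 and 5050.2 in cluster 4. Within a cluster the family differed less between settings than over all sensitive cells, while RPS27 kept a gap. In cluster 3, which held mostly sensitive cells, RPS6 was at 2004 CPM in cocultured sensitive cells. It was at 1918 CPM in the 91 cells annotated as cocultured resistant there. In cluster 0 the 2534 cocultured resistant cells had 1329.7 CPM. Across all other clusters with at least 50 cocultured resistant cells, these cells had 1186 to 1428 CPM. Not every annotated cell met the transgene limit that the methods state, and whether the 91 cells carry the right label was not tested. The clusters were drawn from expression in these cells, so these are descriptions.

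Members with a further known role did not move as one. The P stalk, which recruits elongation factors, consists of RPLP0 with RPLP1 and RPLP2. In monocultured sensitive, cocultured sensitive, cocultured resistant and monocultured resistant cells, RPLP0 had 735, 933, 915 and 1031 CPM, RPLP1 2739, 3492, 3822 and 3625 CPM and RPLP2 1568, 2415, 2362 and 2009 CPM. All 3 were lowest in sensitive monoculture, RPLP0 was highest in resistant monoculture and RPLP1 in resistant coculture, and RPLP2 in sensitive coculture. RPL5 and RPL11, which with 5S ribosomal RNA can bind MDM2 and so stabilise p53, had 1871, 1947, 2037 and 2439 CPM and 1937, 2255, 1927 and 2133 CPM. RPL5 was highest in resistant monoculture, RPL11 in sensitive coculture. RPS27A, made as a fusion with ubiquitin, had 2144, 2638, 2909.6 and 3252 CPM, and its log2 ratio of resistant to sensitive monoculture was 0.60. RPS27L, a p53-induced copy of RPS27, had 245, 257, 258 and 231 CPM, a far narrower range than RPS27, and the ratio of RPS27 to RPS27L was 11.0, 26.9, 30.1 and 25.2. The ratio of RPL39 to RPL39L was 21.5, 47.0, 48.5 and 21.8, close in both monocultures and higher in both cocultured populations.

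Further members past a log2 ratio of 0.5 between the monocultures were RPL13, RPL13A, RPL14, RPL15, RPL18, RPL19, RPL26, RPL32, RPL7A, RPS12, RPS13, RPS14, RPS15A, RPS16 and RPS23, all higher in resistant cells, from 0.50 to 0.71. RPL14 had 1232, 1429, 1682 and 1966 CPM and RPS14 4405, 5644, 6199.7 and 6863 CPM in the same order, and both were thus lowest in sensitive monoculture and highest in resistant monoculture. Most members have processed pseudogenes of nearly the same sequence, 30 annotated for RPS27, 19 for RPL39, 15 for RPS6 and 133 for RPL21. Reads that the counting could not place between such copies make these levels uncertain.

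Other TOP messenger RNAs and the mitochondrial ribosomal protein genes had medians nearer 0 than the family's in the first 2 comparisons and lower than the family's in the third. In the order sensitive coculture over monoculture, resistant over sensitive monoculture, resistant coculture over monoculture and resistant over sensitive within coculture, the 21 compared elongation factors and other TOP messenger RNAs had medians of -0.01, 0.22, -0.27 and -0.05. In the first comparison 5 higher and 5 lower were called, near the 22.4% and 20.3% of all genes. In the second 9 higher and 1 lower were called, against 28.3% and 22.4% of all genes, and in the third 0 higher and 12 lower, against 13.9% and 11.5%. EIF3E, a subunit of initiation factor 3, had 226, 305, 337 and 297 CPM in monocultured sensitive, cocultured sensitive, cocultured resistant and monocultured resistant cells. PABPC1, the poly(A)-binding protein, had 209, 165, 171 and 178 CPM and EIF4A2, an initiation helicase, 112, 78.7, 60.5 and 59.1 CPM. EIF3E was lowest in sensitive monoculture, PABPC1 and EIF4A2 highest there, so the TOP messenger RNAs outside the ribosome did not share 1 direction.

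The 56 compared mitochondrial ribosomal protein genes, whose products build the separate ribosome inside mitochondria, had medians of 0.03, 0.15, -0.12 and 0.03, with 9 higher and 4 lower in the first comparison, 18 higher and 3 lower in the second and 1 higher and 9 lower in the third, to be read against the shares of all genes given for the TOP messenger RNAs. Of 8 compared genes of mTORC1 and translation control, 3 higher and 1 lower were called in sensitive coculture over monoculture, against 22.4% and 20.3% of all genes, shares that also apply to the other lists counted in that comparison here. PDCD4, which inhibits the initiation helicase, had 231, 306, 356 and 333 CPM, EIF4E, the cap-binding protein, 65.3, 85.2, 92.4 and 64.0 CPM, and RHEB, the activator of mTORC1, 176, 146, 131 and 143 CPM. EIF4G1, the initiation scaffold, had 151, 137, 136 and 134 CPM. Of the chaperones dedicated to single ribosomal proteins, 3 of 8 were compared and none were called in that comparison: GRWD1 had 62.0, 73.8, 62.2 and 61.3 CPM, AAMP 66.1, 56.9, 56.1 and 62.3 CPM and RPS19BP1 380.5, 380.0, 325 and 339 CPM. Of the 3 compared genes of the 5S particle and p53, 0 higher and 1 lower were called in the same comparison. RRS1, an assembly factor of the 5S particle, had 64.7, 46.1, 43.9 and 53.7 CPM, lower in coculture than in monoculture in both lineages. Near relatives outside the symbol rule were RPL22L1, with 131, 148, 213 and 254 CPM, and RPL36AL, with 395, 410.5, 413 and 461 CPM. RPL22L1 was higher in both resistant populations.

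The cells carried the markers of their label. The luminal epithelial genes KRT8, KRT18, KRT19, EPCAM, CDH1, ESR1 and GATA3 summed to 9101, 8751, 7586 and 9542 CPM, led by KRT19 with 3671, 2923, 2571 and 3218 CPM and KRT18 with 2705, 3078, 2646 and 3579 CPM. The 7 stromal, endothelial and immune markers found in the tables summed to 3.85, 4.41, 4.01 and 3.59 CPM, mostly COL1A1, and CD3E, which marks T cells, and COL1A2, which marks fibroblasts, were each at or below 0.0250 CPM. MALAT1, a nuclear RNA whose share is known to be high in damaged cells, had 54479.7, 34681, 45317 and 43403 CPM, highest where the ribosomal protein share was lowest. NEAT1 had 3782, 3988, 3105 and 2524 CPM. Of 9 compared genes of dissociation and heat stress, 3 higher and 3 lower were called in sensitive coculture over monoculture, against 22.4% and 20.3% of all genes, with DUSP1 at 134, 72.7, 90.2 and 81.0 CPM and DNAJB1 at 74.6, 102, 96.1 and 79.9 CPM. The part of these in the family's share was not tested. Between libraries, 7 to 17 cell barcodes were the same.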

How the data were processed

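Single-cell RNA was measured in 3 libraries. The authors counted UMIs per gene and barcode with Cell Ranger 3.0.2 on GRCh37, per the labels, and deposited raw counts. Their deposited annotation gives, for each kept cell, S and G2M scores, mitochondrial percent, phase, cluster and population, made with Seurat after quality limits and doublet removal, and 10 of its columns were not used. The methods state that kept cells have at least 2 UMIs of a transgene. That held for 1314 of 3329 monocultured sensitive, 1127 of 2059 cocultured sensitive, 3932 of 6292 cocultured resistant and 3446 of 7557 monocultured resistant cells. The annotation was used as given, and the stricter set was tried as an alternative.

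UMIs of 19237 annotated cells were summed per population, 70896822 to 270891547 UMIs each. Rows that name no gene, which held 0.523% to 0.591% of UMIs, were dropped, after which cells differed from the authors' counts by at most 6 UMIs. Log2 ratios are of CPM + 1. Intervals are exact (Poisson, Clopper-Pearson or conditional binomial) at 95%, and the limit for a gene without UMIs is 3 counts. Depth makes them narrow, and they cover counting error only. Coding lengths, positions and starts were read from GENCODE 44 mapped to GRCh37. The annotation version used in counting is not given in the sources used here. Python 3.11.15, numpy 2.4.6, scipy 1.17.1, pandas 2.3.3 and, for TMM factors, edgeR 4.0.16 in R 4.3.3 were used, and the ratios were tested on simulated data.

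Named are the 5 members with the highest mean CPM, the 5 highest and 5 lowest in sensitive coculture over monoculture and in resistant over sensitive monoculture, those past a log2 ratio of 0.5 in any comparison, symbols ending in L, the P stalk, RPS6, RPL5, RPL11, RPS27A and RPSA, and the 2 highest and 2 lowest of each other list in the first comparison. Some genes that meet these rules are not reported here. The members and lists were chosen with earlier results of these data known. Alternatives changed the total, the phase, the cells, their weight, the scaling, the pseudocount, the threshold and the filter.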

Additional observations from a re-analysis of the deposited data

Results flagged for a closer look

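The log2 ratio of coculture over monoculture had opposite signs in the lineages for the family's share and for many members named in the report. For the share of UMIs, the log2 ratio of coculture over monoculture was 0.40 in sensitive cells and -0.027 in resistant cells, a difference of 0.43. The resistant value was close to the median of all genes, -0.034. It was 0.0020 in cells with under 10% mitochondrial UMIs and 0.40 for members of at most 300 coding bases, so an opposite response of the family as a whole is not shown. Of the 77 compared members, 74 were above 0 in sensitive cells and 49 below 0 in resistant cells. The median of all genes was itself above 0 in sensitive cells, at 0.01, and below 0 in resistant cells, at -0.034. Opposite signs were also seen in 30 of the members that the naming rule took and that are reported here. Each was above 0 in sensitive cells and below 0 in resistant cells, with counting intervals clear of 0. Neither these signs nor opposite signs were counted over all genes, so no result about the family is drawn from the 74, the 49 or the 30. In order of the difference of log2 ratios, sensitive minus resistant, these were RPSA 0.78, RPS19 0.65, RPL27A 0.59, RPS16 0.56, RPL18 0.54, RPS12 0.54, RPLP0 0.52, RPL13A 0.52, RPS2 0.51, RPS3 0.51 and RPS23 0.51. They went on with RPS14 0.50, RPL13 0.50, RPL19 0.49, RPS15A 0.48, RPL15 0.48, RPL3 0.47, RPS27A 0.46, RPL8 0.45, RPL14 0.44, RPL32 0.39 and RPL7A 0.37. The smaller differences were RPL29 0.37, RPL11 0.37, RPS13 0.35, RPL5 0.32, RPL26 0.31, RPS7 0.31, RPS18 0.20 and RPS6 0.11. Among these RPSA, the laminin receptor protein, differed most and RPS6 least. Both comparisons use cells of the same coculture library, each condition is 1 library, and the difference between lineages was not tested.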

How the results depend on the processing

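In the order sensitive coculture over monoculture, resistant over sensitive monoculture, resistant coculture over monoculture and resistant over sensitive within coculture, the log2 ratios of the family's share (0.40, 0.50, -0.027 and 0.074 as reported) moved as follows. Without mitochondrially encoded genes in the totals they were 0.36, 0.43, -0.030 and 0.045. In G1 cells they were 0.42, 0.54, -0.037 and 0.086. In cells with 2 or more UMIs of a transgene they were 0.42, 0.52, -0.020 and 0.085. In cells with under 10% mitochondrial UMIs they were 0.18, 0.17, 0.0020 and -0.014. In cells with 20000 to 40000 UMIs they were 0.43, 0.55, -0.025 and 0.097. As means of per-cell values they were 0.44, 0.55, -0.031 and 0.082. With TMM factors they were 0.43, 0.62, -0.099 and 0.091. With median-of-ratios factors they were 0.44, 0.61, -0.078 and 0.097. Without RPS27 they were 0.38, 0.49, -0.042 and 0.071. For members of at least 600 coding bases, added after seeing the data, they were 0.24, 0.52, -0.22 and 0.057. For members of at most 300 coding bases, also added then, they were 0.84, 0.47, 0.40 and 0.034. The 3 changes of sign concern the last 2 comparisons, in cells with under 10% mitochondrial UMIs and in members of at most 300 coding bases. Counts of called members as reported were 46, 68, 27 and 6. They changed by more than 1.5 times only in cells with under 10% mitochondrial UMIs (25, 29 and, within coculture, 11) and at a threshold of 0.5 (22, 40, 1 and 1), and in the first 2 comparisons most called members stayed higher in each. The cause was not tested. The low-gene filter of 50 UMIs over both populations brought in up to 79 members. No paired analysis was possible because each condition is 1 library, and for the same reason no replicate could be left out. Depth does not limit these ratios, and the missing replicate libraries do.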
